A study of Mus musculus with 4 samples.

Results

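The receptors for interleukin-23 (IL-23), IL-12, IL-6 and IL-27, the cytokines IL-17A, IL-17F and IL-22, and a receptor chain for IL-17 were examined in regulatory T cells that lacked or kept a functional Prdm1 gene. The 10 genes were Il23r, Il12rb1, Il12rb2, Il6ra, Il6st, Il27ra, Il17a, Il17f, Il22 and Il17ra, out of 22180 genes named on the array. Each was represented by 1 probe whose annotation gave that gene alone. All 10 are described, whatever their level.

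The cells were CD4 T cells of mice immunized with NP-OVA (a hapten coupled to ovalbumin) in CFA, complete Freund's adjuvant, and sorted on day 7. The KO mice were Prdm1 fl/fl and FoxP3 YFP-Cre, and the WT mice were FoxP3 YFP-Cre without floxed Prdm1, so that every animal carried the YFP-Cre allele. Follicular regulatory T cells (TFR) were sorted as PD1+CXCR5+YFP+ and other regulatory T cells (non-TFR) as CXCR5-YFP+. YFP+ cells with CXCR5 but without PD1 fall in neither gate. Cre follows Foxp3 in these mice, and Prdm1, which encodes the repressor Blimp-1, is its target in Foxp3-expressing cells. The KO TFR, WT TFR, KO non-TFR and WT non-TFR groups had 1 Affymetrix Mouse Gene 2.0 ST array each. No replicate thus stands behind any difference, neighbouring levels cannot be told apart by any measured spread, and no p-value is given. For animals per array, age and background strain, the sources used here give nothing.

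IL-23 and IL-12 share a cytokine subunit and the receptor chain Il12rb1. That chain pairs with Il23r to bind IL-23 and with Il12rb2 to bind IL-12. IL-6 binds Il6ra, and the complex then engages the shared signalling chain gp130, encoded by Il6st, which IL-27 also uses together with Il27ra. IL-6 and IL-23 signal largely through STAT3 and promote and maintain IL-17-producing helper T cells (Th17 cells). In CD4 T cells, IL-6 also opposes the induction of Foxp3, the factor that defines the sorted cells.

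Levels are log2 signals after quantile normalization, and a difference of 1 is 2-fold. The table has no detection calls. A background limit was therefore set on each array at the 95th percentile of 1405 probes for olfactory and vomeronasal receptors, genes not known to act in T cells, and it lay between 5.52 and 5.62. Folds are given only between values above the limit. Of the 10 genes, 5 were above the limit on all 4 arrays, 3 on 2 arrays and 2 on none. The mean level of 6 exceeded the median of all genes, 5.91.

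The sorted cells carried the markers of their gates. All 6 regulatory T cell markers (Foxp3, Il2ra, Ctla4, Ikzf2, Cd4 and Cd3e) were above the background limit on every array. Cd79b, a B cell marker, and Cd8b1, a CD8 T cell marker, also were, so this alone does not identify a cell type. In both genotypes the TFR array was above the non-TFR array for all 4 TFR markers (Cxcr5, Bcl6, Pdcd1 and Icos). Foxp3 was at 11.87 in KO TFR and 12.36 in WT TFR cells, and at 12.42 in KO non-TFR and 12.45 in WT non-TFR cells. Prdm1, the target of the deletion, was at 7.32 in KO TFR and 8.21 in WT TFR cells, and 7.59 in KO non-TFR and 7.80 in WT non-TFR cells. The exons its probe covers are not known here, and signal from outside the deleted part would check nothing. RNA was pooled from many cells, and fewer cells expressing a gene cannot be told apart from less RNA per cell.

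**Figure D1:**
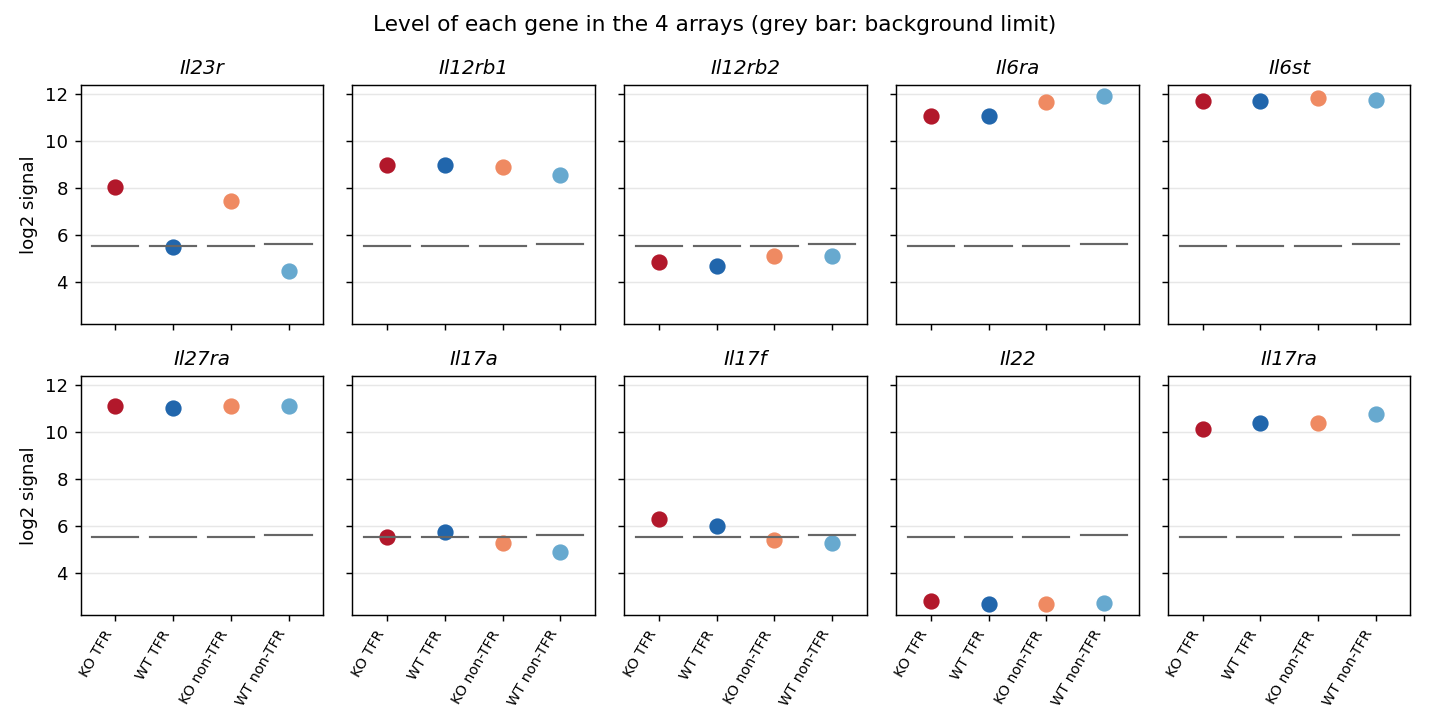
Log2 signal (vertical axis) of the 10 genes in KO TFR, WT TFR, KO non-TFR and WT non-TFR cells, 1 point per array, with the array's background limit as a grey bar. Il23r is at 8.04 and 7.43 in the KO arrays and at 5.49 and 4.47 in the WT arrays, below the limit, and the other genes spread over at most 1.02.

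Il23r, the chain that gives the IL-23 receptor its specificity, separated the genotypes in both populations. Its level was 8.04 in KO TFR cells, against 5.49 in WT TFR cells, and 7.43 in KO non-TFR cells, against 4.47 in WT non-TFR cells. Both KO arrays were above the background limit and both WT arrays below it, by 0.03 in WT TFR cells and by 1.15 in WT non-TFR cells. The differences were 2.55 in TFR and 2.96 in non-TFR cells. With the WT values raised to the limit they were 2.52 and 1.82, and both remained past 2-fold. Il23r was above 74.3% of genes in KO TFR and above 68.2% in KO non-TFR cells, against 42.2% in WT TFR and 20.9% in WT non-TFR cells.

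Among all 22180 genes, Il23r ranked 3 by its difference in TFR cells and 1 in non-TFR cells, and with every value raised to the limit it ranked 2 in TFR and 4 in non-TFR cells. Its exact rank thus depends on the dim WT values. Both genotype differences come from separate pairs of arrays, but whether TFR and non-TFR cells of a genotype came from the same mice is not known here. By the smaller of both differences, Il23r stood first either way, at 2.55 as measured and at 1.82 with the values raised to the limit. The next gene was Pcsk1 at 1.45 as measured, a prohormone processing enzyme named here after its values were seen, and Stom at 1.43 with the values raised. At least 2-fold higher in KO were 0.289% of all genes in TFR cells and 0.433% in non-TFR cells. At least 2-fold lower were 0.162% in TFR and 0.0766% in non-TFR cells. Of the 10 receptor and cytokine genes, Il23r was the only one called in either comparison, and none was 2-fold lower. The 10 were chosen with earlier results of these data known, so that this count is a description.

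The same gene showed a smaller step between the populations. In KO cells the Il23r level of TFR exceeded that of non-TFR cells by 0.61 (1.52-fold), with both arrays above the limit. In WT cells the level of 5.49 in TFR and that of 4.47 in non-TFR cells were both below the limit. Their difference of 1.02, nominally past 2-fold, became -0.10 with both values raised to the limit and is not taken as measured. The genotype difference in TFR cells minus that in non-TFR cells was -0.41 as measured, where the middle 95% of genes spanned -0.69 to 0.60, but 0.70 with values raised to the limit, where they spanned -0.54 to 0.49. Its sign and size rest on the dim WT values and are not taken as measured.

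Il23r and Il12rb2 are neighbours on chromosome 6, with no other protein-coding gene between them in the RefSeq annotation. The 250 bases before the annotated start of each are shown because the genes are related and adjacent, and Il12rb2 was below the background limit on every array. The sequences are those of RefSeq on build GRCm38.p6, minus strand, at chr6:67491856-67492105 for Il23r and chr6:67376189-67376438 for Il12rb2. Capitals mark GAAAG, the core of the motif known for Blimp-1, or its reverse complement, and AGGTCA, a short element that several nuclear receptors bind, or its reverse complement.
Il23r: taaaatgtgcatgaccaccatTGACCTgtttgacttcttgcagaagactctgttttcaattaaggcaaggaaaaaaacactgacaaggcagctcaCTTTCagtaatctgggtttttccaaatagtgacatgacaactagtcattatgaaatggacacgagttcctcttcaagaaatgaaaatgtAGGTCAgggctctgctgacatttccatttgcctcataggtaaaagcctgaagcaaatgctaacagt
Il12rb2: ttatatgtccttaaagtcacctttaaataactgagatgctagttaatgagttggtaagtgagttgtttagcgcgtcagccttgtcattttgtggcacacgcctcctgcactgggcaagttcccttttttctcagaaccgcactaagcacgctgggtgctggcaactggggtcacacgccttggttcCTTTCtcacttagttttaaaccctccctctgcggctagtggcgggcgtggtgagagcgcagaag

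The Il23r window held 1 GAAAG match, beginning 155 bases before the start, and 2 AGGTCA matches, beginning 229 and 66 bases before it. The Il12rb2 window held 1 GAAAG match, beginning 64 bases before the start, and 0 of AGGTCA. Over both strands, 51.5% of 32851 promoter windows of this length held GAAAG, 14.0% held AGGTCA and 1.36% held it at 2 or more places. Of the 7 genes with a window in the table, 5 held GAAAG, and Il23r, Il17a and Il17f held AGGTCA. The longer motif AGNGAAAG, which contains the core, was found in Il17a alone and in 7.30% of all windows. A STAT motif (TTCNNNGAA) was in Il12rb2, with 7.02% of all windows, and an AP-1 motif (TGANTCA) in Il17a, with 6.75%. These matches describe letters in a window and show no binding.

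The partner chains were nearly level or too dim to compare. Il12rb1, shared by the IL-23 and IL-12 receptors, had levels of 8.96 in KO TFR and 8.98 in WT TFR cells, and of 8.87 in KO non-TFR and 8.56 in WT non-TFR cells. WT non-TFR cells were the lowest of the 4 arrays, and the genotype difference was -0.02 in TFR cells and 0.31 (1.24-fold) in non-TFR cells. Il12rb2, the IL-12-specific chain, was at 4.86 in KO TFR and 4.67 in WT TFR cells, and at 5.11 and 5.12 in KO and WT non-TFR cells. All of these were below the background limit, so that a difference in Il12rb2 could not be measured.

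IL-6 receptor chains were well above the limit on every array. Il6ra, which binds IL-6, had levels of 11.06 in KO TFR and 11.05 in WT TFR cells, and of 11.63 in KO non-TFR and 11.91 in WT non-TFR cells. Both TFR arrays lay below both non-TFR arrays. TFR minus non-TFR was -0.57 in KO cells (1.48-fold lower) and -0.86 in WT cells (1.81-fold lower). Among the 2218 genes nearest in brightness (10 equal bins by mean level), the middle 95% spanned -0.80 to 0.69 in KO cells, where Il6ra lay inside, and -0.73 to 0.89 in WT cells, where it lay below. By genotype Il6ra differed by 0.00 in TFR and by -0.28 in non-TFR cells, inside the corresponding ranges.

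Il6st (gp130) was the steadier IL-6 receptor chain, at 11.70 in KO TFR, 11.71 in WT TFR, 11.79 in KO non-TFR and 11.74 in WT non-TFR cells. The 4 values spanned 0.10. Il27ra, the IL-27-specific chain that pairs with gp130, was at 11.11 in KO TFR, 11.03 in WT TFR, 11.10 in KO non-TFR and 11.11 in WT non-TFR cells, a span of 0.08. For Il6st and Il27ra every pairwise difference was at or below 0.10, but without replicates an interval for it cannot be given.

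Il17a, the defining Th17 cytokine, was close to the background limit. Its level was 5.55 in KO TFR and 5.73 in WT TFR cells, just above the limit, and 5.26 in KO non-TFR and 4.89 in WT non-TFR cells, below it. The genotype difference measured above the limit, in TFR cells, was -0.19 (1.14-fold lower). Il17f, its close relative, was at 6.29 in KO TFR and 6.02 in WT TFR cells, and at 5.43 in KO non-TFR and 5.27 in WT non-TFR cells, again above the limit in TFR cells and below it in non-TFR cells. The genotype difference in TFR cells was 0.27 (1.21-fold). Il17a and Il17f lie side by side on chromosome 1.

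Between the populations, both cytokine genes had higher values in TFR cells, but all their non-TFR values were below the limit. The differences were 0.29 for Il17a and 0.86 for Il17f in KO cells, and 0.85 for Il17a and 0.75 for Il17f in WT cells. With non-TFR values raised to the limit, that of Il17a was 0.01 in KO and 0.12 in WT cells, and that of Il17f 0.75 in KO and 0.40 in WT cells. The population difference of Il17a is thus not taken as measured. Il22, the cytokine that acts on epithelial cells, was at 2.80 in KO TFR, 2.69 in WT TFR, 2.68 in KO non-TFR and 2.74 in WT non-TFR cells. At most 0.379% of genes were dimmer than Il22 on any array. The adjacent protein-coding gene Iltifb is a near copy of Il22, and their signals may not be separable.

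Il17ra, the chain through which IL-17A and IL-17F signal, was at 10.12 in KO TFR and 10.38 in WT TFR cells, and at 10.37 in KO non-TFR and 10.75 in WT non-TFR cells. WT non-TFR cells had the highest value and KO TFR cells the lowest. KO minus WT was -0.25 (1.19-fold lower) for TFR and -0.38 (1.30-fold lower) for non-TFR cells. The non-TFR value lay just below the middle 95% of genes of like brightness, which began at -0.35, and the TFR value inside its own, which began at -0.47. Across the 10 genes and 4 comparisons, 36 of 40 differences lay inside that range, and by construction 5% of genes lie outside it in each comparison. The 4 outside were those of Il23r by genotype in both populations, of Il17ra by genotype in non-TFR cells and of Il6ra between the WT populations.

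**Figure D2:**
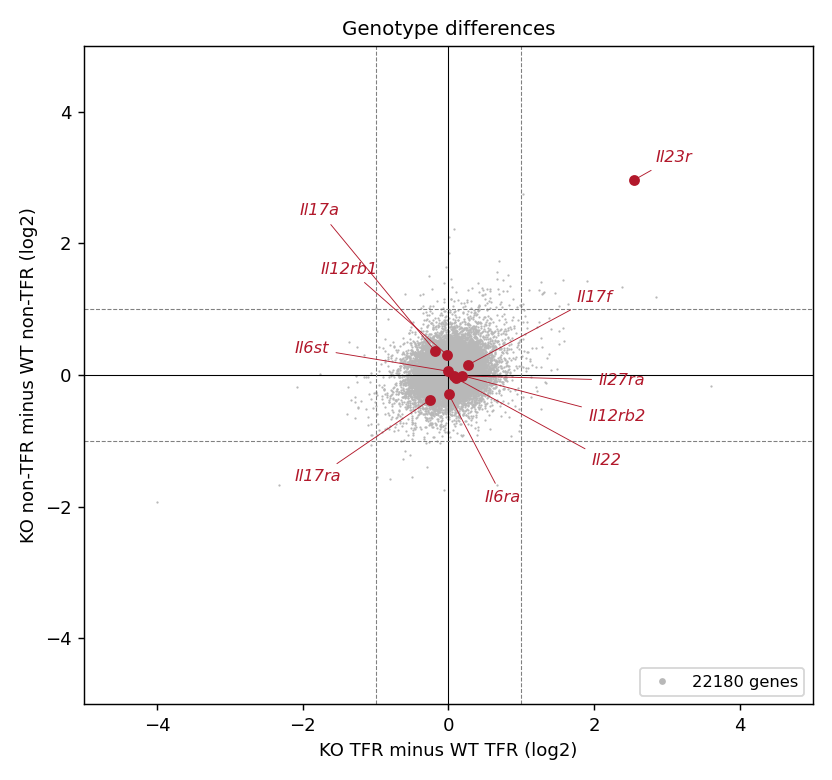
KO TFR minus WT TFR (horizontal) against KO non-TFR minus WT non-TFR (vertical), in log2 units, for 22180 genes (grey) and the 10 receptor and cytokine genes (red); dashed lines mark 2-fold. Il23r lies apart at 2.55 and 2.96, and the other red points are within 0.38 of 0 on both axes.

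The median difference of the 10 genes was close to that of all genes in each comparison. It was 0.04 in TFR and 0.03 in non-TFR cells by genotype, where all genes had 0.01 and 0.03. Between TFR and non-TFR cells it was 0.05 in KO and -0.04 in WT cells, where all genes had -0.00 and 0.01. Of the 10 genes, none was 2-fold apart between the KO populations, and between the WT populations Il23r alone was nominally past 2-fold, on values below the limit. At least 2-fold higher in TFR were 2.23% of all genes in KO and 2.69% in WT cells, and at least 2-fold lower were 1.18% in each. These splits depend on the scaling: in KO cells 494 genes were higher and 262 lower, but 686 and 156 as deposited, and in WT cells 596 were higher and 261 lower, but 783 and 172 as deposited. On the deposited scale the median of all genes was itself 0.12 higher in TFR cells of KO and 0.11 higher in those of WT mice.

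A lower limit of 1.5-fold brought in Il17a, Il17f and Il6ra between populations and no further gene by genotype. Between the KO populations Il23r and Il17f passed it as higher in TFR and none as lower, where 7.85% of all genes were higher and 6.88% lower. Between the WT populations Il23r, Il17a and Il17f passed it as higher and Il6ra as lower, where 8.69% were higher and 5.97% lower. The WT non-TFR values of all 3 higher genes were below the limit, and with values raised to it none of the 3 passed 1.5-fold, at -0.10 for Il23r, 0.12 for Il17a and 0.40 for Il17f. By genotype Il23r stayed alone, where 1.81% of all genes were higher and 1.24% lower in KO TFR cells, and 2.44% were higher and 1.01% lower in KO non-TFR cells.

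**Figure D3:**
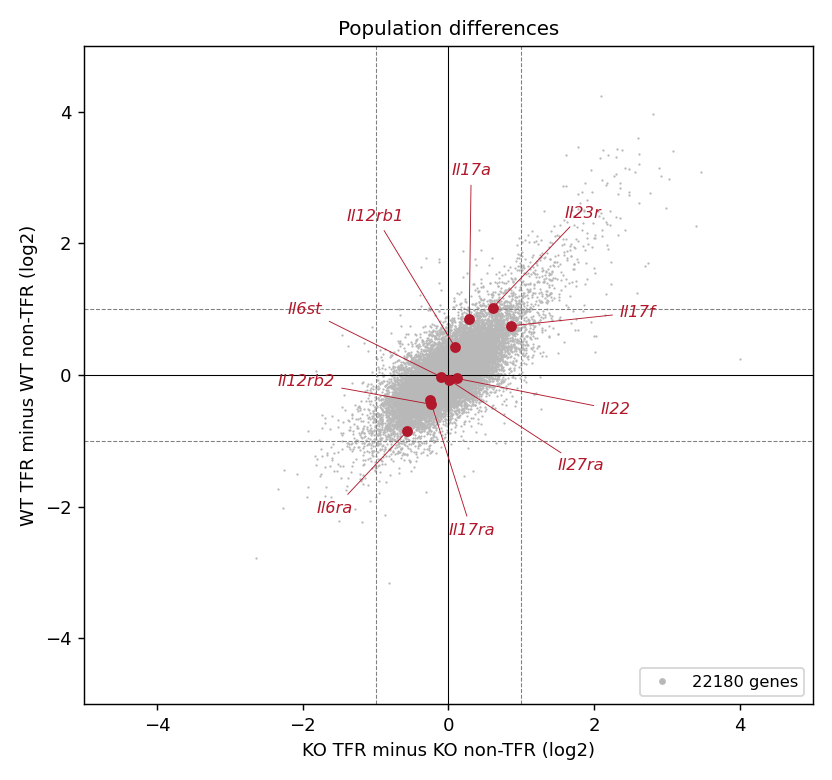
KO TFR minus KO non-TFR (horizontal) against WT TFR minus WT non-TFR (vertical), in log2 units, for 22180 genes (grey) and the 10 receptor and cytokine genes (red); dashed lines mark 2-fold. Il6ra is the lowest red point at -0.57 and -0.86, and Il23r, Il17a and Il17f are the highest in WT, with the WT non-TFR value of each below the background limit.

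The ligands of these receptors were next set beside them. Of 12 cytokines of the IL-12 and IL-6 families 11 were measured, and none was 2-fold apart by genotype. Il23a, Il12a and Il12b, which encode the subunits of IL-23 and IL-12, and Il6 and Il11 were below the limit on all arrays. Ebi3, which encodes the subunit common to IL-27 and IL-35, was at 7.86 in KO TFR and 8.14 in WT TFR cells, and at 7.74 in KO non-TFR and 6.89 in WT non-TFR cells. WT non-TFR cells stood lowest for Ebi3: KO non-TFR cells were 0.85 and WT TFR cells 1.25 above them. Lif, the leukaemia inhibitory factor gene, was 0.57 higher in KO than in WT non-TFR cells, at 7.40 and 6.83. The list's median difference by genotype was -0.04 in TFR and -0.01 in non-TFR cells.

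Of 6 other receptor genes listed for the gp130 family 4 were measured, and none was 2-fold apart in any comparison. Lifr and Osmr, for leukaemia inhibitory factor and oncostatin M, were below the limit on every array. Crlf2, a chain of the receptor for thymic stromal lymphopoietin, was at 9.53 in KO TFR and 9.54 in WT TFR cells, and at 9.24 in KO non-TFR and 8.98 in WT non-TFR cells.

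Signalling genes downstream of these receptors were present on all arrays. Jak2, the kinase bound to IL-23R, was at 10.51 in KO TFR and 10.11 in WT TFR cells, and at 9.89 in KO non-TFR and 9.76 in WT non-TFR cells. Stat4, the main transducer of IL-12, was 0.40 higher in KO than in WT TFR cells and 0.33 higher in KO than in WT non-TFR cells. Stat3 was 0.20 higher in TFR cells and differed by -0.01 in non-TFR cells. Of the 9 measured genes of this list 1 was 2-fold apart by genotype, Cish, a STAT5-induced inhibitor of cytokine signalling. Its level was 10.27 in KO TFR and 11.33 in WT TFR cells (2.10-fold lower), but 11.32 in KO non-TFR and 11.29 in WT non-TFR cells. The KO TFR array was thus low for Cish and the others were alike. Socs1 and Socs3, feedback inhibitors of cytokine receptors, each differed by -0.01 by genotype in TFR cells. KO TFR minus KO non-TFR was -0.80 for Socs1 and -0.77 for Socs3.

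Transcription factors of the Th17 programme did not move as a group with the genotype in TFR cells. Of 13 measured genes 5 were higher and 8 lower, none of them 2-fold, with a median of -0.05. Hif1a, the hypoxia-inducible factor that also acts in Th17 differentiation, was at 12.37 in KO TFR and 11.53 in WT TFR cells, a difference of 0.84 (1.79-fold). Fosl2, an AP-1 factor, was at 8.94 in KO TFR and 9.75 in WT TFR cells, a difference of -0.81. In non-TFR cells 10 were higher and 3 lower, with a median of 0.28 and none 2-fold apart. Batf was 0.71 higher in KO non-TFR cells, the ligand-activated factor Ahr 0.71 and Maf 0.67, while Fosl2 differed by -0.61. Between populations Maf, a factor of follicular T cells, was higher in TFR cells by 1.69 in KO and 1.81 in WT mice, the largest difference of the list.

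Other genes used as Th17 markers were compared by genotype. Of these, 12 of 16 were higher in TFR cells and 4 of these passed 2-fold, the median being 0.36. In non-TFR cells 13 of 16 were higher, with a median of 0.49, and 1 passed 2-fold. The counts include Ccl20, Csf2 and Cd5l, which were below the limit on every array. The 2-fold call of Il1r1 in TFR cells rests on a WT value below the limit. Over all genes the medians were 0.01 in TFR and 0.03 in non-TFR cells, and 0.289% and 0.433% were at least 2-fold higher. Il21, a cytokine of follicular and Th17 cells, was at 8.0 in KO TFR and 6.59 in WT TFR cells, and at 5.42 and 5.34, below the limit, in KO and WT non-TFR cells. Tmem176a was 1.27 and Tmem176b 1.21 higher in KO than in WT TFR cells, and 0.57 and 0.72 higher in KO than in WT non-TFR cells. These adjacent membrane protein genes are associated with Th17 cells in mice.

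Il1r1, the receptor for IL-1, was at 6.34 in KO TFR cells, against 5.19 in WT TFR cells, and at 5.06 in KO and 4.91 in WT non-TFR cells. Only the KO TFR value was above the limit. Ccr6, the chemokine receptor typical of Th17 cells, was at 8.62 in KO TFR and 8.05 in WT TFR cells, and at 8.09 in KO non-TFR and 6.78 in WT non-TFR cells. Ccr6 was the gene 2-fold apart in non-TFR cells, at 1.31 (2.48-fold). The list was written with earlier results of these data known, so that its direction is a description.

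Remaining genes of the IL-17 and IL-22 families showed no 2-fold difference by genotype among 13 measured. Their medians were -0.02 in TFR and 0.12 in non-TFR cells. Il17rb, the receptor chain for IL-25, was at 5.75 in KO TFR and 6.59 in WT TFR cells, a difference of -0.83, and at 5.55 in KO non-TFR and 4.70 in WT non-TFR cells, where the WT value was below the limit. Il17rc, the partner of Il17ra, was above the limit on 1 array. Traf3ip2, which encodes the adaptor Act1 of IL-17 receptors, lay between 9.51 and 9.64 on the 4 arrays.

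**Figure D4:**
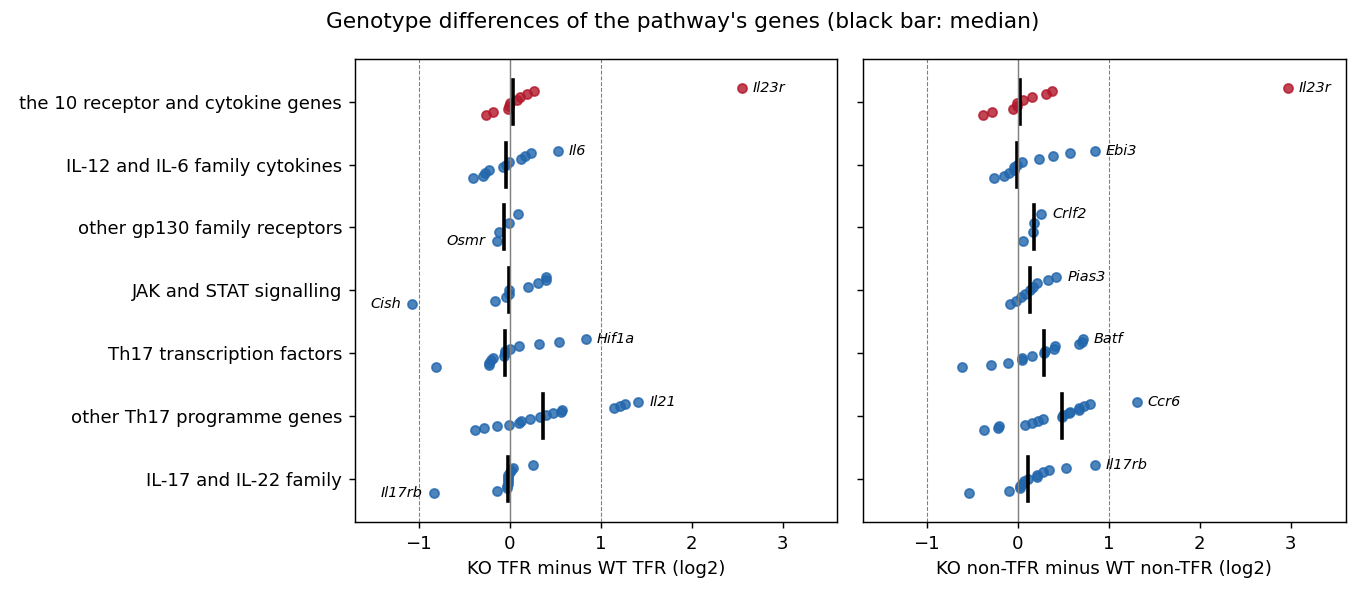
Log2 differences KO TFR minus WT TFR (left) and KO non-TFR minus WT non-TFR (right) of the 10 receptor and cytokine genes (red) and of the measured genes of the pathway lists (blue), with the median of each list as a black bar and 2-fold as dashed lines. Il23r stands apart at 2.55 and 2.96, and the other Th17 programme genes have medians of 0.36 and 0.49.

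Genes whose pattern over the 4 arrays was most like that of Il23r were sought among 10159 genes above the median level, leaving out predicted genes, small RNAs, T cell receptor and immunoglobulin segments and olfactory and vomeronasal receptors. Likeness was the root mean square difference of log2 values, each centred on the gene's own mean, over these 4 arrays alone. Both WT values of Il23r in this pattern were below the background limit. The closest were Stom (0.60), Mid2 (0.76), Il13ra1 (0.78), Sema6d (0.80), Gna14 (0.80), Cebpa (0.80), Clip3 (0.83) and Pnkd (0.84), where the median gene had 1.43. Stom, a membrane scaffold protein, was 1.91 higher in KO than in WT TFR cells and 1.43 higher in KO than in WT non-TFR cells. Il13ra1, a receptor chain for IL-13, was 1.64 and 1.09 higher. No gene came closer than 0.60. Every one of these 8 had a smaller genotype difference than Il23r in both populations. The ranks of Il23r among all genes, 3 in TFR and 1 in non-TFR cells, left little room for another outcome. Il17f was the other gene whose range reached 1, but that range rests on non-TFR values below the limit. Opn3 (0.02), Ahi1 (0.03) and Cep83 (0.03) were most like Il17f.

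**Figure D5:**
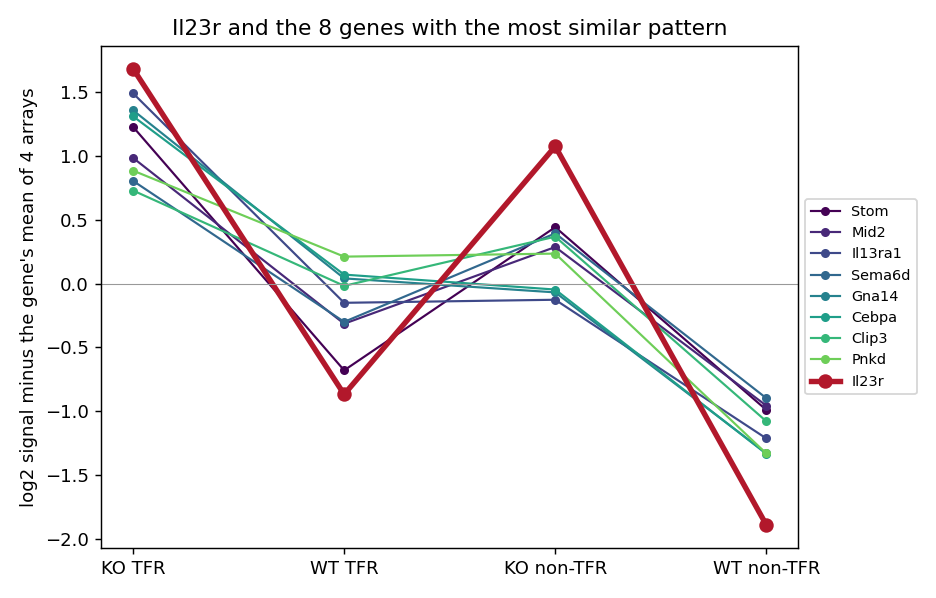
Log2 signal minus the gene's mean of 4 arrays (vertical axis) for Il23r (thick red) and the 8 genes of most similar pattern, in KO TFR, WT TFR, KO non-TFR and WT non-TFR cells; lines join the points of a gene. Stom is nearest to Il23r at a root mean square difference of 0.60. All 9 genes are higher in KO than in WT cells of the same population, but the 8 were chosen for their likeness to Il23r.

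TFR markers moved with Il23r in both populations, and cell cycle genes in non-TFR cells. All 4 TFR markers were higher in KO cells of both populations: Cxcr5 by 0.87 in TFR and 0.84 in non-TFR cells, Pdcd1 by 0.82 and 1.52, Bcl6 by 1.12 and 0.25, and Icos by 0.28 and 0.62. Their summed linear signal was 5186 in KO TFR and 3119 in WT TFR cells, and 1960 in KO non-TFR and 1131 in WT non-TFR cells. Of 9 cell cycle genes, all 9 were higher in KO than in WT non-TFR cells, with a median of 1.12, while the median in TFR cells was 0.08. Over all genes the medians were 0.03 in non-TFR and 0.01 in TFR cells. Bub1 was below the limit on both non-TFR arrays, and the WT non-TFR values of Cdk1 and Birc5 were below it. The part of the TFR markers and cell cycle genes in the Il23r difference was not tested. The cell cycle sum was 7203 in KO TFR and 6773 in WT TFR cells, and 1625 in KO non-TFR and 710.2 in WT non-TFR cells.

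Markers of other cells were examined because IL-23R is also found on gamma delta T cells and innate lymphoid cells. Of 6 genes listed for these, 3 were measured, and Kit was at 6.60 in KO TFR and 5.66 in WT TFR cells, Blk at 6.11 and 5.28, and Sox13 at 6.67 and 6.55. Their summed linear signal was 268.04 in KO TFR and 183 in WT TFR cells, and 166 in KO non-TFR and 161 in WT non-TFR cells. All 3 were above the limit in KO TFR, 2 in WT TFR, 2 in KO non-TFR and 1 in WT non-TFR cells. The sum was thus higher in KO than in WT TFR cells, as Il23r was, and differed by little in non-TFR cells. Within it, Kit was higher in KO than in WT non-TFR cells, where its WT value was below the limit, and Sox13 was lower. Tcrg-C1, Trdc and Il1rl1 were listed but not measured, so that the sum covers these cells only in part. Their part in the Il23r difference was not tested in either population. Summed signals of 5 B cell markers were 446 in KO TFR and 480.4 in WT TFR cells, and 457 in KO non-TFR and 402 in WT non-TFR cells. Those of 8 myeloid and dendritic cell markers lay between 228 and 254 on all arrays, with at most 1 marker above the limit on any array. Those of 5 NK and CD8 T cell markers were 658 in KO TFR and 690 in WT TFR cells, and 833 in KO non-TFR and 887 in WT non-TFR cells. Cd8b1 was the brightest of these, at 9.29 in KO non-TFR and 9.42 in WT non-TFR cells, and Ncr1 and Cd8a were below the limit on every array. Klrb1c was at 6.12 in KO TFR and 5.85 in WT TFR cells, and at 5.75 in KO non-TFR and 4.77, below the limit, in WT non-TFR cells. Klrb1c was thus higher in KO cells of both populations, as Il23r was, but its non-TFR step rests on that dim WT value. Eomes, a marker of the same list above the limit on every array, went the other way. For Eomes, KO minus WT came to -0.56 among TFR cells and to -0.35 among non-TFR cells. The part of either gene in the Il23r difference was not tested.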

How the data were processed

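Per the labels, total RNA of each sorted population was labelled with biotin and hybridized to 1 array per group, 4 arrays in all. The authors deposited 1 log2 value per probe and array for 41345 probes. Values between 2.23 and 13.8 were read as log2. The submitters' processing notes name MAS5, with neither version nor role, and the sources used here do not say how background was corrected or probes summarized. Deposited medians ran from 5.58 to 5.69. All probes were quantile normalized with limma 3.58.1 in R 4.3.3, which would also take away a true shift shared by most genes.

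Probes with exactly 1 gene symbol in the platform annotation (23521) were used, and of those 23328 matched RefSeq by Entrez identifier with 0 symbols changed. The brightest probe stood for a gene. No filter on dim genes was applied to the counts. Comparisons are log2 differences of 2 arrays, and genes at least 2-fold apart were counted. An additive model would leave 1 residual degree of freedom and was not fitted. The counting step was checked on simulated data. The number of arrays limits the precision.

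The 10 genes and 13 lists were chosen with earlier results of these data known. Named were the 10 genes, up to 4 genes with the largest differences per list and comparison, the target and gate genes, and the genes most like Il23r (8) and like any other of the 10 that spanned at least 1 (3 each). Sums of linear signal, and genes such as Il23a, Lifr, Stat3 and Traf3ip2 named for their role, fall outside this rule in some comparisons. Also tried were the deposited values, cyclic loess, 75th percentile centring, quantile normalization over named probes, the mean of all probes, a floor at the background limit, only genes above the median level, and a 1.5-fold limit.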

Additional observations from a re-analysis of the deposited data

Results flagged for a closer look

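Several of the 10 genes had effects of opposite sign in groups that share a contrast. With 1 array per group these differences of differences were not tested. For KO minus WT, TFR against non-TFR cells, Il17a had the largest, -0.56, with -0.19 in TFR and 0.37 in non-TFR cells, where both values were below the background limit. It was the single gene of these whose 2 effects both exceeded the median size over all genes, 0.145 in TFR and 0.142 in non-TFR cells. Under the same contrast the difference was -0.33 for Il12rb1, 0.29 for Il6ra, 0.20 for Il12rb2, 0.16 for Il22, 0.0908 for Il27ra and -0.067 for Il6st. For TFR minus non-TFR, KO against WT cells, it was again 0.0908 for Il27ra and 0.16 for Il22, since both contrasts use the same 4 arrays. Il12rb2 and Il22 were below the background limit on all 4 arrays, so that their signs are not taken as measured.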

How the results depend on the processing

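The counts of 2-fold genotype differences among the 10 genes, 1 higher and 0 lower in each population, were unchanged under all 8 alternatives. The mean of all probes and the restriction to genes above the median level could not alter any value of these genes. Each has 1 probe, and the restriction reuses the same values. The Il23r difference ranged from 2.51 to 2.56 in TFR and from 2.94 to 2.98 in non-TFR cells across scalings, and was 2.52 and 1.82 with the floor. Between WT TFR and WT non-TFR cells the count of 1 higher gene became 0 with quantile normalization over named probes, where Il23r was at 1.00, just short of 2-fold, and 0 with the floor, where it was -0.10. At 1.5-fold that comparison had 3 genes higher and 1 lower, and KO TFR against KO non-TFR cells had 2 higher. Of 264 recomputed differences 14 changed sign, all small or on values below the limit, and 262 kept their side of 2-fold. The 264 include those under both settings that could not alter a value. Counts over all genes moved with the settings: by genotype in TFR cells from 49 to 402 higher and 23 to 275 lower, in non-TFR cells from 77 to 541 and 14 to 225, and between populations from 336 to 1742 and 147 to 1527 in KO and from 433 to 1927 and 151 to 1325 in WT cells. The highest counts in each were those at 1.5-fold. No paired analysis was possible because each group has 1 array and no replicate numbers to pair; a fit with population as a block was possible, with 1 residual degree of freedom, and was not run. Dim genes (Il12rb2, Il22, and Il17a and Il17f in non-TFR cells) are limited by signal over background.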
